A study of Mus musculus with 20 samples.

Results

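RNA of 10 genes around the insulin receptor substrates, the FOXO factors and the feedback on PI3K (phosphoinositide 3-kinase) was followed in CD4+ iNKT1 cells of 7 groups of mice. The members are Irs1, Irs2, Insr, Igf1r, Foxo1, Foxo3, Pik3ip1, Txnip, Sesn1 and Sesn3. They were chosen by gene name, and each name matched 1 of the 53714 genes in the deposited table. These cells belong to the invariant NKT lineage, whose receptor recognises lipids on CD1d, and mainly secrete interferon-γ. The study asked how organ and mode of cell isolation shape their transcriptome. All mice were female, 8 to 12 weeks old and without a transgene or a treatment before harvest. C57BL/6N (BL6) mice gave 3 libraries each of spleen, liver_C, liver_H, blood and thymus, and BALB/c mice gave 3 of liver_H and 2 of liver_C. Liver_H denotes 30 min of enzymatic digestion (DNase I, collagenase D) at 37 °C, while liver_C, spleen and thymus were meshed in the cold. Livers of both kinds were perfused and their cells passed a Percoll gradient at 20 °C. Spleen and liver libraries are pools of 4 to 6 mice. The CD1d tetramer-binding cells were sorted as CXCR3+ from blood, spleen and liver and as CD122+ from thymus, so organ and gate cannot be told apart in the thymus. Livers were split between the preparations and the labels do not tell which libraries share mice, so p-values below treat all libraries as independent.

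Depth was 9336860 to 22879834 reads per library. All 7 iNKT1 markers were detected in each group, with a summed level of 29533 to 59004 normalized reads over the 20 libraries. The thymus libraries also held 10552 to 23813 normalized reads of 7 double-positive thymocyte markers, against 104 to 232 in spleen, and Rag1 alone had a mean of 10613. Among the BALB/c liver_C libraries, N0970 had 5743 normalized reads of 6 preparation stress genes (Hspa1a, Hspa1b, Fos, Fosb, Jun, Dusp1) and N1227 had 1281. In BALB/c liver_H, N0972 held 1240 normalized reads of hepatocyte markers, and N0971 held 2250 of thymocyte and 2264 of erythroid markers. Library numbers fell into 3 ranges. Of the BL6 liver_H libraries, N0963 and N0969 came from a range that holds no BL6 liver_C or spleen library, and N1225 from a range that holds 1 of each.

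In insulin and growth factor signalling, an activated receptor phosphorylates an IRS protein, which recruits PI3K and thereby activates AKT. AKT phosphorylates FOXO factors, which then leave the nucleus. FOXO factors in the nucleus raise transcription of genes of trafficking and quiescence in T cells, and in several tissues also of Irs2, Insr and sestrins, which closes a feedback loop. Pik3ip1 encodes a membrane protein that holds back PI3K, and Txnip an arrestin that limits glucose uptake. Sestrins hold back mTORC1 when amino acids are scarce or stress is high.

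The promoters of Irs2, Txnip and Sesn1 are shown because their windows hold a FOXO site or an E-box among the motifs searched. That of Irs1, which was too low to be tested, also held an E-box and is not shown. They reach from 250 bases before to 50 after the RefSeq start on GRCm38.p6, read 5′ to 3′ on the strand of the gene. Capitals mark a FOXO site (GTAAACA or its reverse complement TGTTTAC) or an E-box (CACGTG). The first lies at chr8:11008880-11009179 on the minus strand, the second at chr3:96557707-96558006 on the plus strand and the third at chr10:41810324-41810623 on the plus strand.
Irs2: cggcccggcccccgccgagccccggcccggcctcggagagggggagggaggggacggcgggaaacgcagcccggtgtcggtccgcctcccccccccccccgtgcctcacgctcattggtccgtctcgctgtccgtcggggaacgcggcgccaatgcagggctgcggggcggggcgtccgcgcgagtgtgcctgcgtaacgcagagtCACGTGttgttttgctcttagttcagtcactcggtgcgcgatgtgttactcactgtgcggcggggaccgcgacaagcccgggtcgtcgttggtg
Txnip: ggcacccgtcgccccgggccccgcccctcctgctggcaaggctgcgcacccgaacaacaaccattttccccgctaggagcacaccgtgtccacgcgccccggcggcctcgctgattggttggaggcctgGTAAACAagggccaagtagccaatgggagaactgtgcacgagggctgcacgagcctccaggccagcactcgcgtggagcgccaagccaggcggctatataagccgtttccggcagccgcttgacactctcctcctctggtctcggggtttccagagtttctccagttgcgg
Sesn1: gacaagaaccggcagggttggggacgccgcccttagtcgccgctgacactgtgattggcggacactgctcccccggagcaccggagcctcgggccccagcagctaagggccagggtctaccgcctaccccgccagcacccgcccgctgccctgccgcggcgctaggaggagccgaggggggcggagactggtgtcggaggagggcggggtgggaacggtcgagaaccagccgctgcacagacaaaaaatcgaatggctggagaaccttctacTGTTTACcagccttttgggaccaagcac
The E-box of Irs2 began 44 bases before the start, the FOXO site of Txnip 121 bases before and that of Sesn1 22 bases after it.

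RefSeq windows were found for 9 of the 10 members, with 2 for Sesn1, and none was matched for Insr. Both strands were searched. The FOXO motif was in 2 of these 10 windows, those of Txnip and the upstream Sesn1 start, and in 3.65% of all 32851 promoters of the table. The E-box was in the windows of Irs1 and Irs2 and in 7.15% of all promoters. None of the 10 windows held a cAMP response element (TGACGTCA), an AP-1 site (TGANTCA) or a heat shock element (GAA, TTC and GAA with NN between them), which were in 1.79%, 7.81% and 0.603% of all promoters. The members' windows had a median GC content of 68.8% and a median of 29.5 CpG dinucleotides, against 52.7% and 7 over all promoters. These matches are letters in a window and no measure of binding.

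Of the receptors and substrates, Irs2 and Insr carried nearly all reads. Per kilobase of gene length, the median over the 20 libraries was 56.1 normalized reads for Irs2, 39.0 for Insr, 2.09 for Igf1r and 0.295 for Irs1. Irs1, the other main receptor substrate, was at 0 in 8 libraries and reached at most 16.5 normalized reads, in thymus N1376, so it did not pass the filter and was not tested. Igf1r, the receptor of insulin-like growth factor, lay between 3.19 and 107 normalized reads. Insr, the insulin receptor, was the flattest member at 484 to 628 normalized reads, and its highest group mean was 1.07 times the lowest. Per kilobase, the ratio of Irs2 to Insr was therefore set by Irs2. It was 0.688 to 0.886 in BL6 spleen, 1.55 to 2.25 in BL6 liver_C and 4.27 to 7.34 in BL6 liver_H.

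Among the regulators, Txnip was the most abundant per kilobase with a median of 1878 normalized reads. Foxo3 followed with 362, Sesn1 with 354, Sesn3 with 251, Foxo1 with 110 and Pik3ip1 with 84.4. Foxo3 exceeded Foxo1 per kilobase in all 20 libraries, by 2.53 to 4.50 times. Sesn1 exceeded Sesn3 per kilobase in all 20 libraries, with ratios of Sesn3 to Sesn1 of 0.348 to 0.973.

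Irs2 (chr8:10984681-11008458) varied most between groups of the 9 tested members, and its highest group mean was 8.70 times the lowest. Its normalized reads were 163, 210 and 215 in BL6 spleen and 387, 413 and 544 in BL6 liver_C. In BL6 liver_H they were 1185, 1279 and 1819. BL6 blood had 118, 122 and 252 and BL6 thymus had 273, 280 and 281. BALB/c liver_C had 322 and 764, and BALB/c liver_H had 690, 1157 and 1427. All 3 BL6 liver_H libraries thus lay above the 12 other BL6 libraries, which was the case for 3.19% of 14170 genes. In the order of group means, BL6 liver_H, BALB/c liver_H and BALB/c liver_C each overlapped the next group, as did spleen and blood. BL6 liver_C, thymus and spleen were separated, for which no share of all genes was counted.

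**Figure D1:**
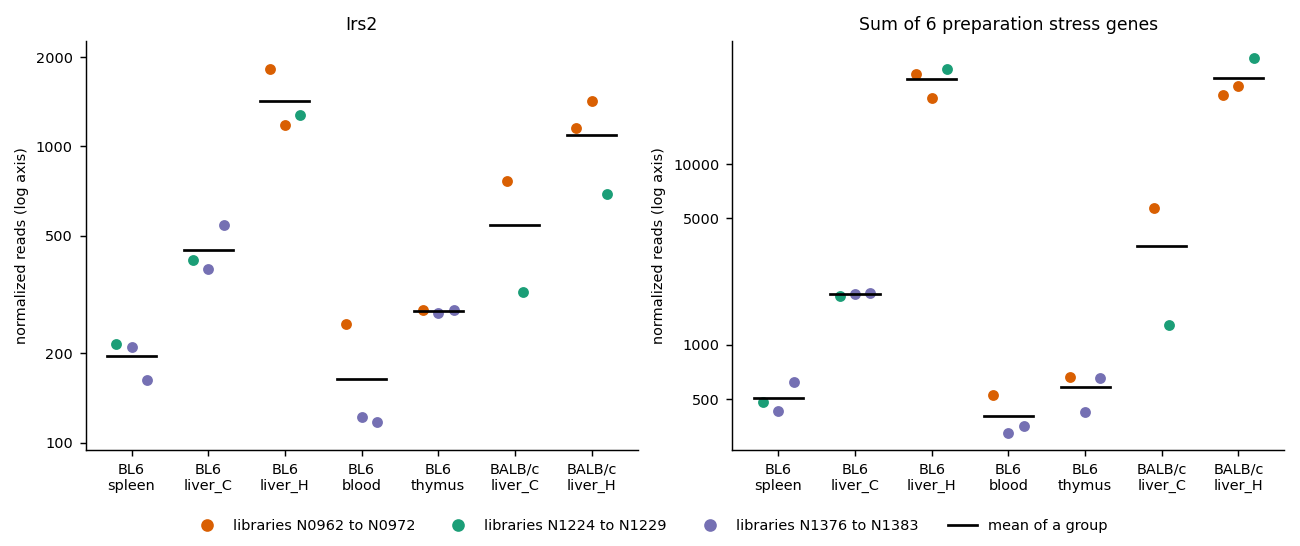
Irs2 (left) and the sum of 6 preparation stress genes (right) in normalized reads on log axes, 1 point per library, coloured by the range of library numbers, with a line at each group mean. BL6 liver_H libraries lie at 1185 to 1819 reads of Irs2, above all other BL6 libraries, and BALB/c liver_C library N0970 is high in both panels.

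The comparison of BL6 liver_H with BL6 liver_C shows what differs between digestion at 37 °C and meshing in the cold within an organ. Irs2 rose 3.19-fold, from a mean of 448 ± 84.6 to 1428 ± 342 normalized reads (SD, n = 3 each). The log2 difference was 1.66 (SE 0.19, limma adjusted p = 0.000111). Sesn1 (chr10:41809935-41908424), which holds back mTORC1, moved the other way. Its libraries were at 1859, 1891 and 2004 normalized reads in liver_C and at 1212, 1214 and 1406 in liver_H, without overlap, for which no share of all genes was counted. The log2 difference was -0.59 (SE 0.11, limma adjusted p = 0.0106). Irs2 and Sesn1 were the 2 members called of 9 tested, beside 2.4% of all 12802 genes tested (1.63% higher and 0.766% lower in liver_H).

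Irs2 kept its call in all 16 alternative analyses, with log2 differences of 1.47 to 1.81, and the range of N1224 to N1229 alone gave 1279 against 413 normalized reads. The call of Sesn1 was lost in 4 of 16 (adjusted p = 0.0914 with the library range as a block, 0.0798 with all 20 libraries in the fit, 0.0563 without liver_H N0963 and 0.0510 without liver_C N1383), at log2 differences of -0.61 to -0.55 in these 4. Digestion and temperature, and for N0963 and N0969 the library range as well, cannot be told apart.

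The 6 preparation stress genes moved with Irs2 and against Sesn1, and all 6 were called higher in BL6 liver_H. They summed to 1852 to 1939 normalized reads in BL6 liver_C and 23154 to 33542 in BL6 liver_H. Their part in the values of the members was not tested. Markers of hepatocytes, cells rich in Irs2, summed to 6.20 to 29.8 normalized reads in BL6 liver_C and 21.6 to 125 in BL6 liver_H. Of these 8 markers, 1 reached 10 reads in a liver_C library and 3 in a liver_H library, and Alb was detected in each library of both. Of 5 tested double-positive thymocyte markers 2 were called higher in liver_H. Their sums were 23.0 to 47.6 normalized reads in liver_C, and 563 in N0963, 719 in N0969 and 67.3 in N1225 of liver_H. Rag1 was at 278 and 412 in N0963 and N0969 and at 0 in N1225. The part of hepatocyte and thymocyte RNA in the values of Irs2 and Sesn1 was not tested. In bulk libraries, more cells with a transcript and more transcript per cell cannot be told apart.

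The other members were not called between the preparations of BL6 liver. Foxo1 had a log2 difference of 0.30 (95% interval -0.01 to 0.61), which turned to -0.06 with the library range as a block. Foxo3 had 0.05 (-0.27 to 0.37) and Sesn3 -0.02 (-0.28 to 0.24). Txnip had -0.13 (-0.59 to 0.33), Pik3ip1 0.30 (-0.24 to 0.84) and Insr 0.08 (-0.20 to 0.36). Igf1r, at 44.4 to 49.3 normalized reads in liver_H and 13.4 to 34.9 in liver_C, did not overlap but was not called, with a log2 difference of 0.99 (SE 0.48, limma adjusted p = 0.34). How many of all genes did not overlap between these groups was not counted.

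In BALB/c liver the same preparations gave log2 differences in the same direction for Irs2, and no member was called of 9, beside 0.273% of 13202 genes (0.258% higher and 0.0151% lower). At an unadjusted p under 0.05 there were 3 (Pik3ip1, Irs2, Igf1r), and edgeR and DESeq2 called 0. How many of all genes were at that unadjusted threshold was not counted. Irs2 had a log2 difference of 1.07 (SE 0.35, limma adjusted p = 0.391), 1.69 without liver_C N0970 and 0.45 without liver_C N1227. Within library ranges the mean of liver_H was 2.14 times that of liver_C in N1224 to N1229 and 1.69 times in N0962 to N0972. The hepatocyte markers summed to 14.1 in N1227 and 165 in N0970 of liver_C, and to 10.7 in N1229, 136 in N0971 and 1240 in N0972 of liver_H. Of the stress genes 3 of 6 were called higher in liver_H, as was 1 of 5 tested B and plasma cell markers, and the part of all these in the members' values was not tested. Sesn1 was at 1197, 1401 and 1596 normalized reads in liver_H and at 1417 and 2361 in liver_C, with overlap, and its log2 difference was -0.40 (SE 0.20, limma adjusted p = 0.618). It was -0.03 without liver_C N0970 and -0.77 without liver_C N1227.

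Pik3ip1 (chr11:3330401-3342971) had its lowest values of all in BALB/c liver_C, at 182 and 201 normalized reads, and 366, 368 and 472 in BALB/c liver_H. The groups did not overlap, but with 3 against 2 libraries the share of all genes without overlap was not counted. The log2 difference was 1.06 (SE 0.30, limma adjusted p = 0.269). The ratio of means was 2.02 within N1224 to N1229 and 2.09 within N0962 to N0972. In BL6, Pik3ip1 ranged from 214 to 354 in liver_C and from 239 to 501 in liver_H.

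The difference of the preparation effect between the strains was tested as an interaction. No member was called, at an unadjusted p under 0.05 neither, and edgeR and DESeq2 called 0 members as well, beside 0% of 13202 genes. For Irs2 the effect in BALB/c minus that in BL6 was -0.59 (95% interval -1.61 to 0.43) and turned to 0.03 without BALB/c liver_C N0970. For Pik3ip1 it was 0.75 (-0.10 to 1.61). For Sesn1 it was 0.19 (-0.39 to 0.77) and turned to -0.18 without BALB/c liver_C N1227. With 2 libraries of BALB/c liver_C these intervals are wide.

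Between the strains in liver_C, again no member was called of 9, beside 2.58% of all genes (1.17% higher and 1.41% lower in BALB/c), and edgeR and DESeq2 called 0. At an unadjusted p under 0.05 there was 1 member (Igf1r), and the share of all genes at that threshold was not counted. Txnip (chr3:96557957-96561883) was at 6525 and 10189 normalized reads in BALB/c and at 3943, 6832 and 6899 in BL6. Its log2 difference of BALB/c minus BL6 was 0.51 (SE 0.29, limma adjusted p = 0.66). Irs2 had 0.16 (SE 0.35, limma adjusted p = 0.952), which turned to -0.46 without BALB/c N0970. Of the B and plasma cell markers 2 of 5 tested were called lower in BALB/c, and their part was not tested. Of 98 tested genes of the pathway lists described below, 1 was called higher and 2 lower in BALB/c. This was 3.06%, near the 2.58% of all genes. Arrdc4, an arrestin of the family of Txnip, was the higher one, with a mean of 144 in BALB/c and 17.1 normalized reads in BL6 (log2 difference 3.20, limma adjusted p = 0.00622). Il7r, the interleukin-7 receptor and a FOXO1 target in T cells, was lower in BALB/c (log2 difference -2.25, limma adjusted p = 0.000221), as was the AKT-related kinase gene Sgk3 (-2.58, limma adjusted p = 0.033). BALB/c N0970 comes from a library range without a BL6 liver_C library. The part of library range in the differences of Arrdc4, Il7r and Sgk3 was not tested.

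**Figure D2:**
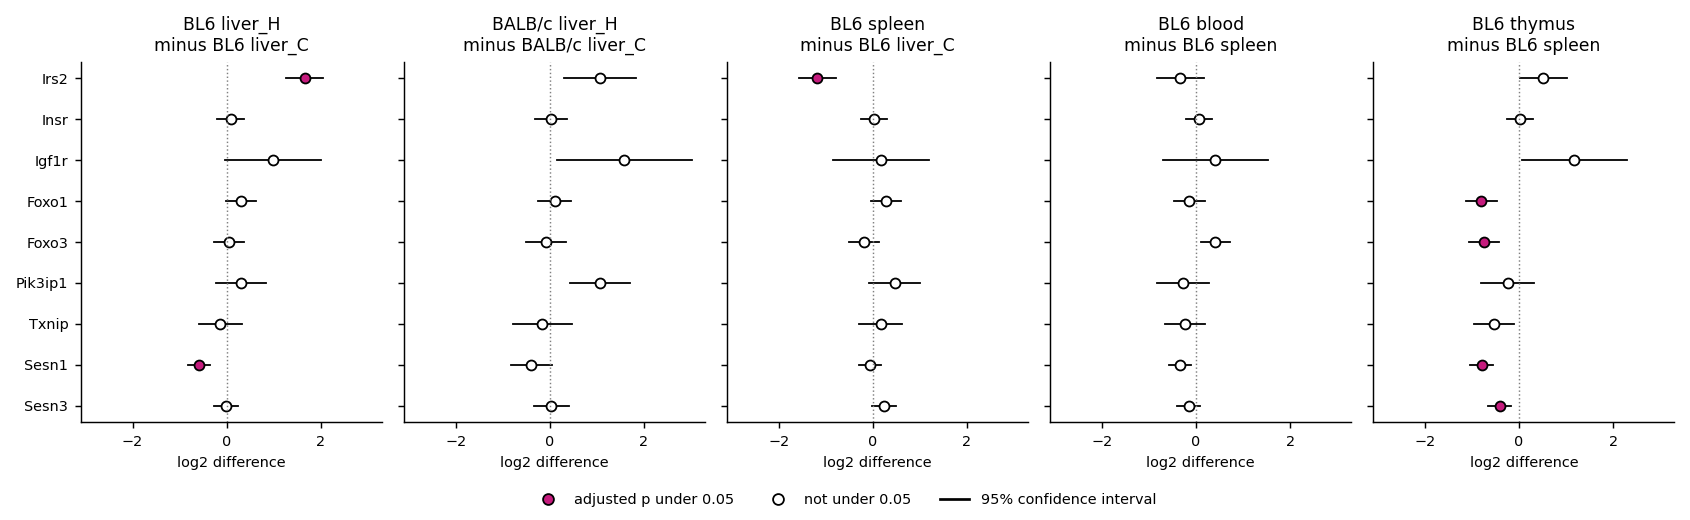
Log2 differences of the 9 tested members in 5 comparisons with 95% confidence intervals, filled where the adjusted p over all genes was under 0.05. Irs2 and Sesn1 are filled between the BL6 liver preparations, Irs2 alone between spleen and liver_C, and Foxo1, Foxo3, Sesn1 and Sesn3 between thymus and spleen.

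Spleen and liver_C were both meshed in the cold, but livers were also perfused and their cells passed the Percoll gradient, so organ and these steps cannot be told apart. Irs2 was lower in spleen, where the mean was 196 ± 28.9 against 448 ± 84.6 normalized reads in liver_C (SD, n = 3 each). The log2 difference of spleen minus liver_C was -1.19 (SE 0.19, limma adjusted p = 0.0027), and with all 20 libraries in the fit it was the same with adjusted p = 0.0685. Liver_C was 1.92 times spleen within N1224 to N1229 and 2.50 times within N1376 to N1383. Irs2 was the only member called of 9, beside 2.55% of all genes (0.914% higher and 1.63% lower in spleen). Sesn1 had a log2 difference of -0.07 (95% interval -0.30 to 0.17), Sesn3 0.23 (-0.03 to 0.49), Foxo1 0.28 (-0.04 to 0.59) and Foxo3 -0.19 (-0.52 to 0.13). The stress genes summed to 431 to 621 normalized reads in spleen, under the 1852 to 1939 in liver_C, with Fos, Jun and Dusp1 called. The hepatocyte markers were at 1.23 to 1.97 in spleen with 5 of 8 at 0 in all its libraries. The B and plasma cell markers were at 2423 to 3632 in spleen and 1679 to 1878 in liver_C, with 6 of 7 tested called higher in spleen. Thymocyte markers (104 to 232 against 23.0 to 47.6, 2 of 5 called) and Kupffer cell and macrophage markers (192 to 347 against 52.0 to 91.0, 1 of 2 called) were higher in spleen as well, while 1 of 7 iNKT1 markers was called lower. The part of these in the difference of Irs2 was not tested.

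Between spleen and liver_H the digestion at 37 °C differs in addition. Irs2 was 7.30 times higher in liver_H (log2 difference of spleen minus liver_H -2.85, SE 0.19, limma adjusted p = 1.23e-07), with -2.97 to -2.66 over 16 alternatives. Sesn1 was higher in spleen, at 1746, 1821 and 1922 normalized reads (log2 difference 0.52, SE 0.11, limma adjusted p = 0.00609). When the library range was a block, Sesn1 had adjusted p = 0.0559. These 2 members of 9 were called beside 16.1% of all genes (6.76% higher and 9.33% lower in spleen). All 6 stress genes, 4 of 7 iNKT1 markers, 1 of 5 erythroid markers and the 1 tested hepatocyte marker were called lower in spleen. Of the B and plasma cell markers 6 of 7 and of the Kupffer cell and macrophage markers 2 of 2 were called higher. The part of these in the values of Irs2 and Sesn1 was not tested. The comparison shares its libraries with both comparisons above.

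Blood and spleen cells gave no called member of 9, beside 4.22% of 13604 genes (2.96% higher and 1.26% lower in blood), and edgeR and DESeq2 called 0. At an unadjusted p under 0.05 there were 2 members (Sesn1, Foxo3), and the share of all genes at that threshold was not counted. Foxo3 was at 3276, 3307 and 4030 normalized reads in blood and at 2432, 2514 and 3045 in spleen, without overlap (log2 difference 0.41, SE 0.15, limma adjusted p = 0.141). Sesn1 was at 1313, 1386 and 1656 in blood, below every spleen library (log2 difference -0.34, SE 0.12, limma adjusted p = 0.112). For these separations of blood from spleen no share of all genes was counted. Irs2 had a log2 difference of -0.33 (95% interval -0.83 to 0.16). Thymocyte markers summed to 209 to 2643 normalized reads in blood, 2 of 7 B and plasma cell markers and 1 of 2 endothelial markers were called lower in blood, and 1 of 7 iNKT1 markers was higher. Their part was not tested.

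Thymus and spleen differed in 4 of 9 members, beside 13.4% of all genes, and all 4 were lower in thymus, a direction called for 5.73% of all genes, with 7.71% higher. They are the FOXO factors among the members, transcription factors that AKT keeps out of the nucleus, and the sestrins among the members. Of 2 other FOXO factors 1 was tested and was not called (log2 difference -0.27). Foxo1 (chr3:52268336-52353221) was at 568, 578 and 760 normalized reads in thymus and at 955, 1025 and 1366 in spleen. Its log2 difference was -0.81 (SE 0.16, limma adjusted p = 0.00127). Foxo3 (chr10:42181841-42276755) was at 1359, 1677 and 1736 in thymus and at 2432, 2514 and 3045 in spleen. Its log2 difference was -0.74 (SE 0.15, limma adjusted p = 0.0017). In both genes the organs did not overlap, for which no share of all genes was counted.

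Sesn1 was at 934, 1055 and 1177 normalized reads in thymus and at 1746, 1821 and 1922 in spleen. It had the smallest adjusted p of the 4 (log2 difference -0.80, SE 0.12, limma adjusted p = 7.45e-05). Sesn3 (chr9:14275067-14333101) was at 3268, 3269 and 3769 in thymus and at 4192, 4755 and 4788 in spleen, with the smallest change of the 4 (log2 difference -0.41, SE 0.12, limma adjusted p = 0.0213). The call of Sesn3 was lost in 5 of 16 alternatives, namely with all 20 libraries in the fit (adjusted p = 0.055) and without spleen N1226, spleen N1377, thymus N1376 or thymus N1380 (0.0728 to 0.0833). Foxo1, Foxo3 and Sesn1 kept their calls in all 16. Within N1376 to N1383, which holds 2 libraries of each organ, spleen was 1.48 times thymus for Foxo1, 1.63 times for Foxo3, 1.88 times for Sesn1 and 1.37 times for Sesn3.

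For Foxo1, Foxo3 and Sesn1 the 3 thymus libraries lay below all 17 other libraries of both strains, which was the case for 2.63% of 14170 genes. The lowest other library was at 773 normalized reads for Foxo1, 2223 for Foxo3 and 1197 for Sesn1. The thymocyte markers moved against these values between thymus and spleen, and all 7 were called higher in thymus. Sesn1 was 934 in N1376, where they summed to 23813, 1055 in N1380 (17558) and 1177 in N0967 (10552). Foxo1 was highest in N1376 (760) and Foxo3 in N0967 (1736). Of the B and plasma cell markers 6 of 7 were called lower in thymus, as were 3 of 7 iNKT1 markers and 1 of 4 Kupffer cell and macrophage markers, and 2 of 6 stress genes were higher. The part of these in the 4 differences was not tested.

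**Figure D3:**
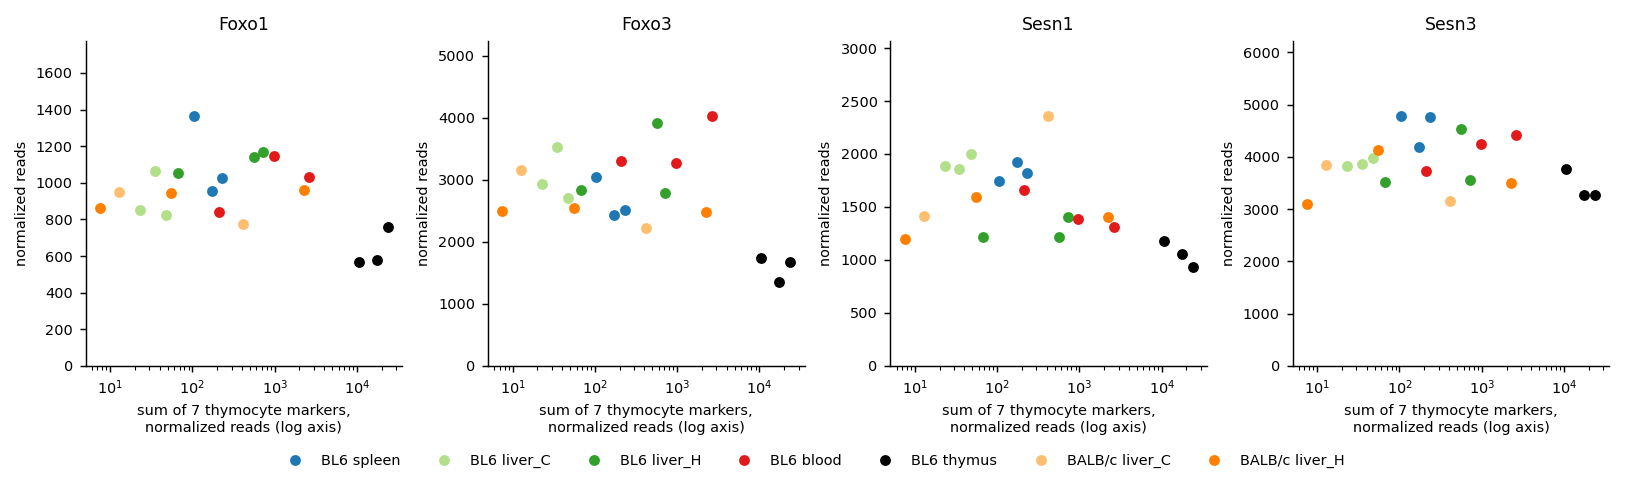
Normalized reads of Foxo1, Foxo3, Sesn1 and Sesn3 (y axes from 0) against the sum of 7 double-positive thymocyte markers (log x axis), 1 point per library, coloured by group. The 3 thymus libraries have sums of 10552 to 23813 and the lowest values of Foxo1, Foxo3 and Sesn1, and in Sesn3 they overlap other groups.

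The remaining members were not called between thymus and spleen. Irs2 had a log2 difference of 0.52 (SE 0.24, limma adjusted p = 0.183) although its libraries did not overlap, for which no share of all genes was counted. Txnip, at 3711, 4641 and 4944 normalized reads in thymus and 5382, 6826 and 7102 in spleen, had -0.54 (SE 0.20, limma adjusted p = 0.0916). It passed with the 2 groups alone in the fit (adjusted p = 0.0387) and when library range was a block (0.0475). Igf1r had 1.18 (SE 0.53, limma adjusted p = 0.175) at 35.4 to 107 normalized reads in thymus. Insr had 0.01 (95% interval -0.27 to 0.29) and Pik3ip1 -0.25 (-0.80 to 0.31).

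**Figure D4:**
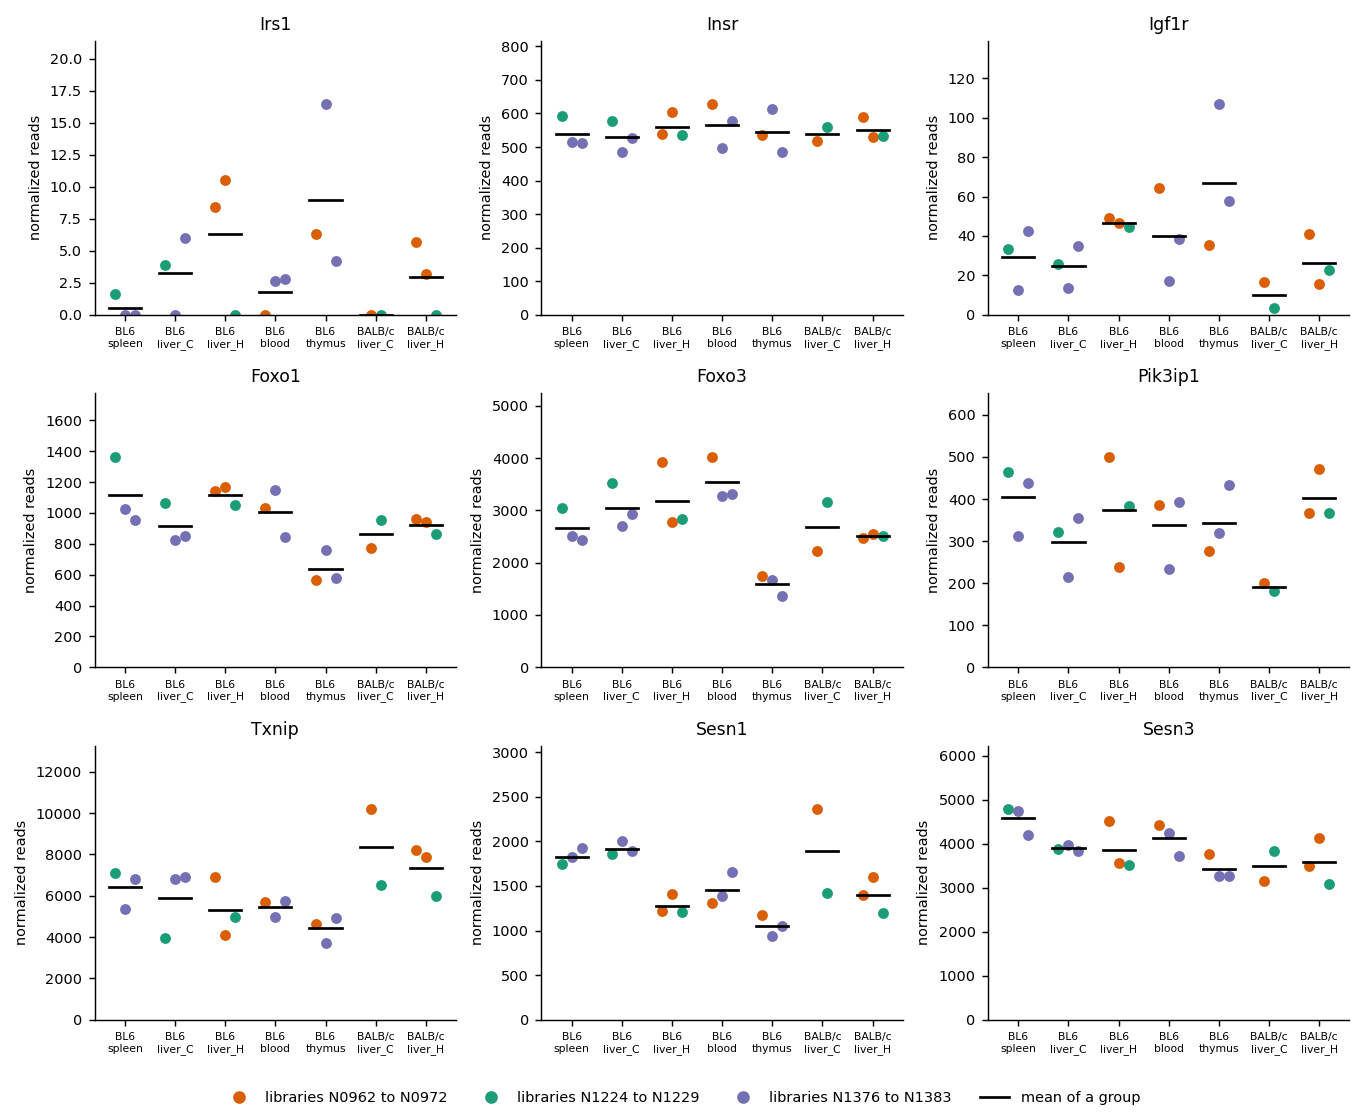
Normalized reads of the 9 members other than Irs2 (y axes from 0), 1 point per library, coloured by the range of library numbers, with a line at each group mean. Insr stays at 484 to 628 in all libraries, Sesn1 is at 1212 to 1406 in BL6 liver_H against 1859 to 2004 in BL6 liver_C, and Foxo1 and Foxo3 are lowest in thymus.

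FOXO target genes were read beside the members as a list of 20, all of which were tested. Between the BL6 liver preparations 3 were higher in liver_H and 0 lower, beside 1.63% and 0.766% of all genes, and the median log2 difference of the list was 0.31 against 0.00 over all genes. Klf2, a factor that sustains genes of T cell egress, rose from a mean of 168 to 2530 normalized reads (log2 difference 3.90, limma adjusted p = 1.92e-10). The study also counted Klf2 among the stress-sensitive genes that were higher in liver_H. The part of FOXO factors or of stress in its rise was not tested. Map1lc3b, an autophagy gene, had a log2 difference of 1.03 (limma adjusted p = 0.00223). Il7r, Bcl2l11 and the other 15 were not called. In BALB/c, Klf2 alone was called (log2 difference 2.96, limma adjusted p = 0.000125), with a list median of 0.42 against 0.03 over all genes.

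Between spleen and liver_C 4 of the 20 were higher in spleen and 2 lower, beside 0.914% and 1.63% of all genes, with a list median of -0.05 against 0.01 over all genes. Il7r had a log2 difference of 1.68 (limma adjusted p = 4.11e-05) and Klf2 0.88 (0.00261), while Bcl2l11, a proapoptotic gene, had -0.74 (0.0021). S1pr1, the sphingosine phosphate receptor of egress, was also higher (1.39, limma adjusted p = 0.00703). Klf2 thus was higher in spleen than in liver_C and higher in liver_H than in spleen, where the log2 difference of spleen minus liver_H was -3.02 (limma adjusted p = 1.04e-09). Il7r, in contrast, was higher in spleen than in either liver preparation (log2 difference to liver_H 1.36, limma adjusted p = 9.35e-05). In that comparison 3 of the 20 were higher in spleen and 7 lower, beside 6.76% and 9.33% of all genes, and Map1lc3b had -1.10 (limma adjusted p = 0.000455).

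In thymus 4 of the 20 were higher than in spleen and 1 lower, beside 7.71% and 5.73% of all genes, with a list median of 0.23 against -0.01 over all genes. Klf2 had a log2 difference of 0.97 (limma adjusted p = 1.68e-05), the autophagy gene Gabarapl1 3.22 (0.000153) and the proapoptotic gene Bbc3 1.61 (0.00248). Rbl2, which encodes the pocket protein p130, fell (-1.47, limma adjusted p = 4.56e-08). In blood 2 were higher than in spleen and 2 lower, beside 2.96% and 1.26% of all genes. Gabarapl1 (2.44, limma adjusted p = 0.00728) and Bcl2l11 (0.43, 0.029) rose, and Il7r (-1.62, 1.63e-05) and Rbl2 (-0.51, 0.0158) fell. Thymocyte markers summed to 10552 to 23813 normalized reads in thymus, 209 to 2643 in blood and 104 to 232 in spleen. For none of the FOXO target genes, in any comparison, was the part of RNA of other cells tested.

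**Figure D5:**
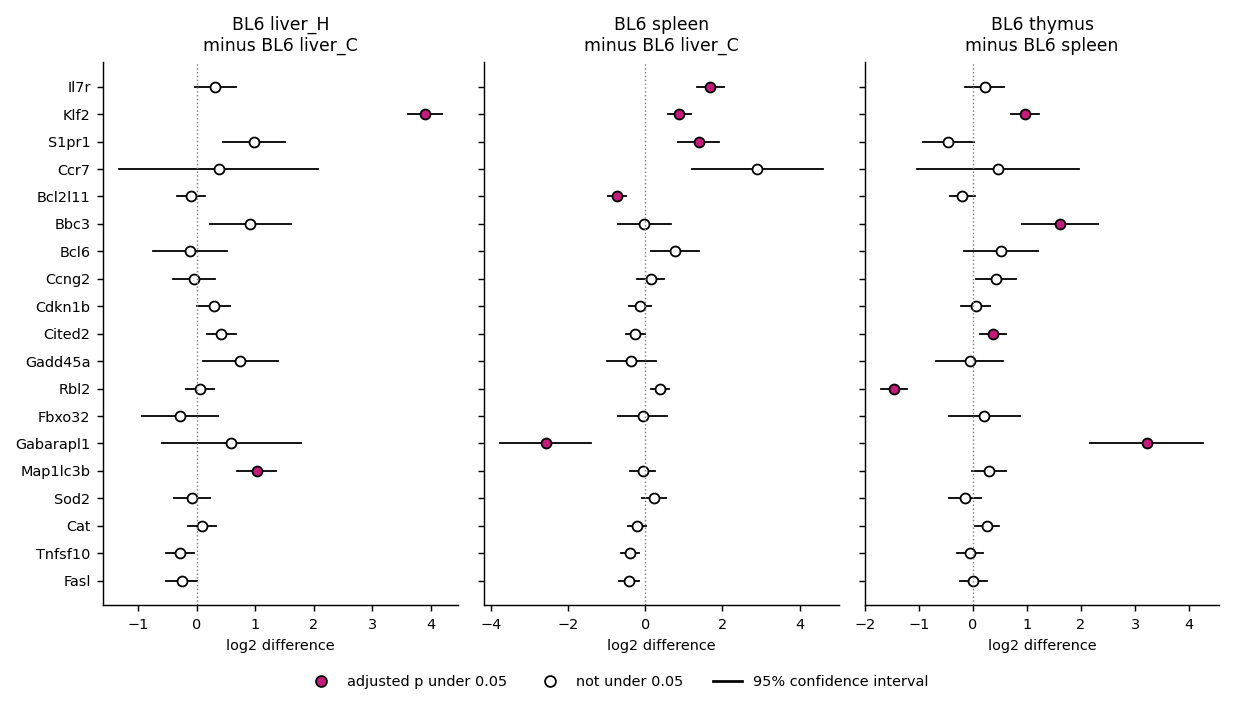
Log2 differences of FOXO target genes with 95% confidence intervals in 3 comparisons, filled where the adjusted p over all genes was under 0.05. Klf2 and Map1lc3b are filled between the BL6 liver preparations, and Il7r, Klf2 and S1pr1 are higher in spleen than in liver_C.

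The other 7 lists of the pathway hold 90 genes around the members. They are adaptors and phosphatases at the receptor (20), class I PI3K subunits together with the adaptor gene Pik3ap1 (10), phosphoinositide and AKT phosphatases (8), AKT, SGK and mTOR genes (20), other FOXO factors (2), genes of the sestrin, GATOR and AMPK arm (16), and arrestins, the MondoA network and glucose uptake (14). Between the preparations of BL6 liver and of BALB/c liver, 0 genes of these 7 lists were called by limma or edgeR. By limma, 2.4% of all genes were called in BL6 and 0.273% in BALB/c. In BL6, 9 of 77 tested were at an unadjusted p under 0.05 in limma and 10 in edgeR, and DESeq2 called 3 (Inppl1, Pik3ca, Sgk1), beside 598 of all 12802 genes. In BALB/c, 3 of 78 were at an unadjusted p under 0.05 in limma and 4 in edgeR, and DESeq2 called 0. For neither strain was the share of all genes at an unadjusted p under 0.05 counted. Between spleen and liver_C 1 gene was higher in spleen, beside 0.914% of all genes, the AKT-related kinase gene Sgk3 (log2 difference 1.32, limma adjusted p = 0.0044). There 2 were lower, beside 1.63% of all genes, the PI3K adaptor gene Pik3ap1 (-1.13, limma adjusted p = 0.00483) and Inpp4b, a phosphatase of phosphoinositides (-0.50, limma adjusted p = 0.0327).

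Between spleen and liver_H, 1 of 9 tested genes of the list of PI3K subunits and Pik3ap1 was higher in spleen and 4 were lower, beside 6.76% and 9.33% of all genes, with a median of -0.46 against 0.02 over all genes. The catalytic subunit genes Pik3cd (-0.83, limma adjusted p = 0.00418) and Pik3ca (0.57, limma adjusted p = 0.0201) moved in opposite directions. Pik3ap1 (-1.13, limma adjusted p = 0.00148) and the regulatory subunit gene Pik3r5 (-0.88, 0.00639) were lower in spleen as well. Of the 8 phosphatases 4 were lower in spleen, with Inpp4b at -0.50 (limma adjusted p = 0.0104), Inpp5d, the gene of SHIP1, at -0.69 (0.0184), Inppl1 at -0.45 (0.0378) and Phlpp1, whose product dephosphorylates AKT, at -0.65 (0.0453). In each of the 4 other lists with called genes 1 gene was higher in spleen and 1 or 2 were lower. The higher ones were Ptpn2 (0.49), Sgk3 (1.20), the GATOR gene Mios (0.88) and the thioredoxin reductase gene Txnrd1 (0.34), and the lower ones Sh2b3 (-0.68), Sgk1 (-1.11), Eif4ebp2 (-0.50), Stk11 (-0.56) and Mlxip, the gene of MondoA (-0.58), at limma adjusted p = 0.00253 to 0.0453. Of 77 tested genes of the 7 lists, limma called 18, edgeR 16 and DESeq2 20. Liver_H N0963 and N0969 come from a library range without a spleen library. Calls of list genes, here and in the other comparisons, were not followed with the block or with a library left out. In blood, 2 of 9 tested genes of the same list were higher than in spleen, the adaptor gene Pik3ap1 (0.92, limma adjusted p = 0.00519) and the subunit gene Pik3cd (0.58, 0.043), and of 20 genes of the AKT, SGK and mTOR list Eif4ebp2 was higher (0.59, 0.0454) and Sgk3 lower (-1.12, 0.00514), beside 2.96% of all genes higher and 1.26% lower.

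In thymus 3 of 20 genes of the AKT, SGK and mTOR list were higher than in spleen and 2 lower, beside 7.71% and 5.73% of all genes. Sgk1, a kinase related to AKT that can also phosphorylate FOXO3, had a mean of 401 against 135 normalized reads in spleen (log2 difference 1.58, limma adjusted p = 1.59e-05). Eif4ebp1, a target of mTORC1, had 1.06 (limma adjusted p = 0.018) and Pdpk1, the gene of a kinase upstream of SGK1 and AKT, -0.37 (limma adjusted p = 0.0204). Among the phosphatases Inpp4a (-1.52, limma adjusted p = 1.14e-05) fell, as did Inppl1, from a mean of 341 to 171 normalized reads (limma adjusted p = 0.000226), while Inpp4b rose (0.53, limma adjusted p = 0.00367). Slc2a3, which encodes the glucose transporter GLUT3, fell from a mean of 2009 in spleen to 956 normalized reads in thymus (log2 difference -1.07, limma adjusted p = 1.48e-06), and in the same list Txnrd1 fell (-0.65, 0.000106) and the thioredoxin gene Txn1 rose (0.71, 0.00496). Pik3ap1 rose by 1.06 (limma adjusted p = 0.000358). Of the adaptors and phosphatases at the receptor, Gab3 fell (-0.99, limma adjusted p = 0.00176) and Ptprf rose from a mean of 8.75 to 233 normalized reads (0.000225). The thymus libraries also held 10552 to 23813 normalized reads of thymocyte markers. The part of this RNA in the differences of the list genes was not tested. None of the 15 tested genes of the sestrin, GATOR and AMPK arm passed, and 0 were at an unadjusted p under 0.05 in limma, edgeR or DESeq2, beside the members Sesn1 and Sesn3, and Sesn2 had a mean of 41.3 normalized reads in thymus.

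The genes whose group means lay closest to those of Irs2 were Junb, Arc and Snhg15. Likeness was the root mean square of the differences of the 7 group means of log2 values, each gene centred on its own mean, over 14170 genes. It was 0.24 for Junb and Arc and 0.25 for Snhg15, while the pattern of Irs2 itself had a root mean square of 1.10. Junb had means of 1124 normalized reads in BL6 spleen, 2121 in BL6 liver_C, 5676 in BL6 liver_H, 564 in blood, 1016 in thymus, 2848 in BALB/c liver_C and 4703 in BALB/c liver_H. For Txnip, whose own pattern had 0.28, the closest were Bloc1s6 (0.06), Tnfrsf14 (0.07) and Gstm4 (0.09). For Pik3ip1, with 0.34, they were Khk (0.08), Slc41a1 (0.11) and Maged2 (0.11).

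Some members share exon sequence with a gene on the opposite strand, and the sources used here do not give the strand setting of the counting. Irs2 shares 162 bases with 9530052E02Rik, which was at 0 to 3.15 normalized reads. Txnip shares 606 bases with Gm15441, at 8.64 to 42.5, and Foxo1 shares 674 bases with Gm20402, at 0 to 25.3.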

How the data were processed

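RNA of sorted CD4+ iNKT1 cells in 20 libraries of 7 groups was sequenced in single reads of 75 bases from stranded total RNA libraries. Trimming by the authors used Trim Galore 0.4.4, alignment to GRCm38.p6 used STAR, gene counts came from featureCounts, and the counts were divided by DESeq2 size factors. The unit of the values deposited by the authors is therefore a signal, normalized reads per gene. The deposited table also holds the gene length in bases, another kind of value, which was used for levels per kilobase, and the authors' fold changes and p-values, which were not used. The reads behind the values were recovered as whole multiples of the smallest step of a library, and at least 99.989% of the values fell within 0.05 of a whole read. Reads carry no molecular identifiers, so errors are SD over libraries, and these measure only the spread between libraries. In the table, 1 line without a gene was left out.

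The limma trend method (version 3.58.1, R 4.3.3) was applied to log2(value + 1). A gene was tested if 3 or more libraries of the fit reached 10 normalized reads. P-values were adjusted by Benjamini and Hochberg over all these genes, with a threshold of 0.05. Differences between the 2 liver preparations and spleen came from a fit of 9 BL6 libraries, those in BALB/c and between strains from 11 liver libraries, and those of blood and thymus from 15 BL6 libraries. Fold changes of low genes are understated on this scale. The tests were tried on simulated data first. Alternatives were edgeR 4.0.16 and DESeq2 1.42.0 on the recovered reads, quantile normalization, no filter or a filter over 300 normalized reads, pseudocounts of 0.5 and 10, other sets of libraries per fit, a block for library range, and each library left out in turn. Promoters and motifs were read with Python 3.11.15 from RefSeq windows of 250 bases before to 50 after a start.

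Named were all 10 members, in each list of the pathway up to 4 called genes with the smallest adjusted p, and the 3 genes most like Irs2, Txnip and Pik3ip1. S1pr1, Sesn2 and the genes called by DESeq2 alone were named after their values were seen. Some genes of the lists that the counts include are not reported by name here. The members and lists were chosen with earlier results of these data known. A planned search of protein motifs was not run.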

Additional observations from a re-analysis of the deposited data

How the results depend on the processing

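Of the members called, Irs2 between BL6 liver_H and liver_C, Irs2 between spleen and liver_H, and Foxo1, Foxo3 and Sesn1 between thymus and spleen kept direction and call in all 16 alternatives each. Between BL6 liver_H and liver_C the count of 2 called members became 1 with all 20 libraries in the fit and 1 when library range was a block, and was 1 to 2 with a library left out. Between spleen and liver_C the count of 1 became 0 with all 20 libraries in the fit and stayed 1 with a library left out. Between spleen and liver_H the count of 2 became 1 with the block, became 3 with quantile normalization and stayed 2 with a library left out. Between thymus and spleen the count of 4 was 3 to 4 with a library left out, 3 with all 20 libraries in the fit, and 5, with Txnip, with the compared groups alone and with the block. The counts of 0 stayed 0. Fold changes were followed over the alternatives for the called members and for chosen others. Among these, directions turned only in values that were not called: Foxo1 between the BL6 liver preparations (-0.06 with the block), Irs2 between the strains in liver_C (-0.10 with the block, -0.46 to 0.79 with a library left out, the lowest without BALB/c liver_C N0970), and the strain interaction of Irs2 (-1.21 to 0.03, the highest without N0970) and Sesn1 (-0.18 to 0.56, the lowest without BALB/c liver_C N1227). Foxo3, Insr and Txnip between the BL6 liver preparations were among those not followed. Within N1224 to N1229 their ratios of liver_H to liver_C were 0.803, 0.926 and 1.27, against the direction over all libraries. The cause was not tested. With the block, differences of BL6 liver_H rest on N1225 alone.

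Over all genes, 307 were called between the BL6 liver preparations (90 with the block, 598 by DESeq2), 326 between spleen and liver_C (138 without spleen N1381, 721 with the block), 2060 between spleen and liver_H (512 with the block, 2397 by DESeq2), 36 between the BALB/c preparations (9 with the compared groups alone, 131 by DESeq2), 0 in the interaction (7 without N1227), 340 between strains (150 with the filter over 300, 655 without N1227), 574 between blood and spleen (258 with all 20 libraries, 1060 with the block) and 1828 between thymus and spleen (1115 with the filter over 300, 2017 by DESeq2). No paired analysis was possible because the groups share no replicate numbers in the labels.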
